A study of Mus musculus with 6 samples.

Results

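Nascent transcription of 10 genes of the histone H3 lysine 9 (H3K9) methylation and heterochromatin protein 1 (HP1) machinery was examined in muscle stem cells (MuSCs), the satellite cells that repair skeletal muscle. The members were taken by name from the gene list of a PRO-seq table: Suv39h1, Suv39h2, Setdb1, Ehmt1, Ehmt2, Cbx1, Cbx3, Cbx5, Trim28 and Atrx. All 10 were among the 14546 genes listed, and all 10 passed the filter on low values. PRO-seq labels the RNA held in engaged RNA polymerases and so maps transcribing polymerases along genes. Libraries came from 3 Ctrl samples (genotype Pax7CreERT/Suv4-20h1WT) and 3 Kmt5b sKO samples (genotype Pax7CreERT/Suv4-20h1KO) of satellite cells that were proliferating in culture. Kmt5b is also named Suv4-20h1 or Suv420h1. Both groups carry Pax7CreERT, a Cre recombinase driven from the Pax7 locus, which is active in satellite cells and is activated by tamoxifen. The study kept its mice on a C57BL/6 background, gave tamoxifen to adults and enriched satellite cells from limb and trunk muscle by magnetic sorting before culture. Its animals were young adults of both sexes in equal proportions, and the sex of the single samples and their day in culture are not given in the sources used here. Any cell that escaped recombination, or that never expressed Pax7, keeps its Kmt5b alleles. The study calls its PRO-seq replicates biological, and the labels do not say whether they were separate animals or cultures, so p-values measure only the spread between these samples.

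Methylated H3K9 is the hallmark of heterochromatin. SUV39H1, SUV39H2 and SETDB1 write its trimethylated form, and EHMT1 (GLP) and EHMT2 (G9a) form a complex that writes mainly the dimethylated form. The HP1 proteins CBX5 (HP1 alpha), CBX1 (HP1 beta) and CBX3 (HP1 gamma) bind methylated H3K9 through a chromodomain and recruit further enzymes, among them KMT5B and KMT5C, which methylate lysine 20 of histone H4. TRIM28 brings SETDB1 to repeats bound by zinc finger proteins, and ATRX with its partner DAXX loads a variant of histone H3 at heterochromatin.

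For each gene the table holds the signal of the TSS region, the first 400 nt of 1 isoform, and that of the gene body, from there to the annotated end. The TSS values are reads scaled to a total per library (RPM), a total smaller than the gene body reads of that library. The gene body values are scaled separately, per length (TPM). The ratio of TSS RPM to gene body TPM is the pausing index, so a shift of all TSS signal against all gene body signal cannot show in it. The listed regions held 926904 to 3246052 TSS reads and 7425424 to 16249140 gene body reads per library. Across the 12877 genes tested, limma called 210 in the TSS region, or 1.63%, and 380 in the gene body, or 2.95%, at a Benjamini-Hochberg adjusted p under 0.1. None of 12073 genes (0%) was called for the pausing index, for which 471 had an unadjusted p under 0.05. Kmt5b itself had TSS values of 93.7, 87.3 and 102 RPM in the Ctrl libraries and 120, 107 and 113 RPM in the Kmt5b sKO libraries (log2 fold change 0.27 ± 0.20 SE, adjusted p = 0.72), and its gene body gave 34.8 ± 4.0 TPM (SD, n = 3) and 38.5 ± 3.8 TPM (SD, n = 3). Signal summed over the whole gene does not test the loss of a deleted exon, so these values do not check the labels.

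The DNA upstream of 3 members is shown because their TSS signal had the lowest fold changes of the 10. Each line gives the 250 bases before the listed start, 5′ to 3′ on the strand of the gene, from GRCm38: Cbx5 at chr15:103239817-103240066, Suv39h2 at chr2:3475032-3475281 and Suv39h1 at chrX:8074761-8075010, each on the minus strand. Capitals mark the letters of E2F, YY1 and CCAAT motifs.
Cbx5: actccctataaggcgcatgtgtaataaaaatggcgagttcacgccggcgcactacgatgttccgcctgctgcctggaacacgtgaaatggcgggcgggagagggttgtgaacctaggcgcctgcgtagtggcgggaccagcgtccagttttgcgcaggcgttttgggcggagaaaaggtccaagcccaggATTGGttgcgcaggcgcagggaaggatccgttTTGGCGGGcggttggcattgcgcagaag
Suv39h2: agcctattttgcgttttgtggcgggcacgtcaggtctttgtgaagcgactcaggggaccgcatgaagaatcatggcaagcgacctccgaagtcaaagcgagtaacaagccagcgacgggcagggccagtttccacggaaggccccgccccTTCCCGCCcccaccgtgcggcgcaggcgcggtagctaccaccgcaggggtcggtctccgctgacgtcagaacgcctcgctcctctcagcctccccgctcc
Suv39h1: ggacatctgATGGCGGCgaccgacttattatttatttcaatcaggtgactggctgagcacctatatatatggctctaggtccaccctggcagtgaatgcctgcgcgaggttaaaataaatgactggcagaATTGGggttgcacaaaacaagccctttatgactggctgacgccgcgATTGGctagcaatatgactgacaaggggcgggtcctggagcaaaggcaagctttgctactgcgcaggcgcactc
The E2F letters (TTTGGCGC, TTTCGCGC, TTCCCGCC or TTGGCGGG, on either strand) were found upstream of 4 members, Cbx5, Suv39h2, Cbx3 and Trim28, and in 5.55% of the windows of 14541 genes. In Cbx5 they began 28 bases before the start, and in Suv39h2 100 bases before it. The YY1 letters (ATGGCGGC, on either strand) were upstream of Suv39h1 and in 1.57% of windows. A CCAAT box, read on either strand, was upstream of 5 members (Cbx5, Suv39h1, Setdb1, Ehmt1 and Atrx) and in 35.4% of windows. SP1 letters (GGGCGGGG, on either strand) were upstream of Suv39h2, Setdb1, Ehmt1, Ehmt2 and Trim28 and in 29.1% of windows, and the MyoD E-box CAGCTG upstream of Ehmt2 and in 12.3%. No member held the letters searched for NRF1 (GCATGCGC), ETS (CCGGAAGT) or a TATA box (TATAAA), which were in 4.06%, 5.08% and 6.60% of windows. These matches are letters in a window and were not tested as binding sites.

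All 10 members had a lower mean in the gene body of Kmt5b sKO MuSCs, with fitted log2 fold changes from -0.63 (Suv39h2) to -0.05 (Trim28) and a median of -0.26, against a median of 0.02 over all genes tested. Of all genes tested, 46.4% had a negative log2 fold change. None of the 10 passed the limma test at an adjusted p under 0.1 (background for a lower call 1.34%), and 2 of them, Suv39h2 and Setdb1, had an unadjusted p under 0.05, as did 6.52% of all genes in the same direction. With edgeR on the recovered reads 1 member was called (background for a lower call 2.84%), and with DESeq2 2 were (4.63%). In 5 members (Suv39h2, Setdb1, Cbx1, Cbx3 and Cbx5) all 3 Kmt5b sKO libraries lay below all 3 Ctrl libraries, which was true of 9.44% of all genes tested. The direction of Trim28 turned to 0.15 without Ctrl replicate 1, and that of Ehmt1 to 0.03 without Kmt5b sKO replicate 3. The values are scaled to a total in each library, so they give the share of a gene and not its absolute output. A smaller share alone, fewer cells with active transcription and less transcription per cell cannot be told apart in these bulk samples.

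In the TSS region 7 members had a negative and 3 a positive log2 fold change, with a median of -0.15 against 0.08 over all genes. There 41.9% of all genes tested had a negative value. The TSS signal of 1 member, Cbx5, fell (background for a lower call 0.699%). Both Cbx5 and Suv39h1 had all Kmt5b sKO libraries below all Ctrl libraries, which held for 5.34% of all genes tested. Setdb1, Ehmt1 and Ehmt2, with positive values, lay between 0.10 and 0.17 on the log2 scale with standard errors of 0.29 to 0.50. For the pausing index the median of the members was 0.02, against 0.05 over all genes. Positive values were found in 5 members and negative ones in 5, where 42.6% of all genes tested were negative.

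**Figure D1:**
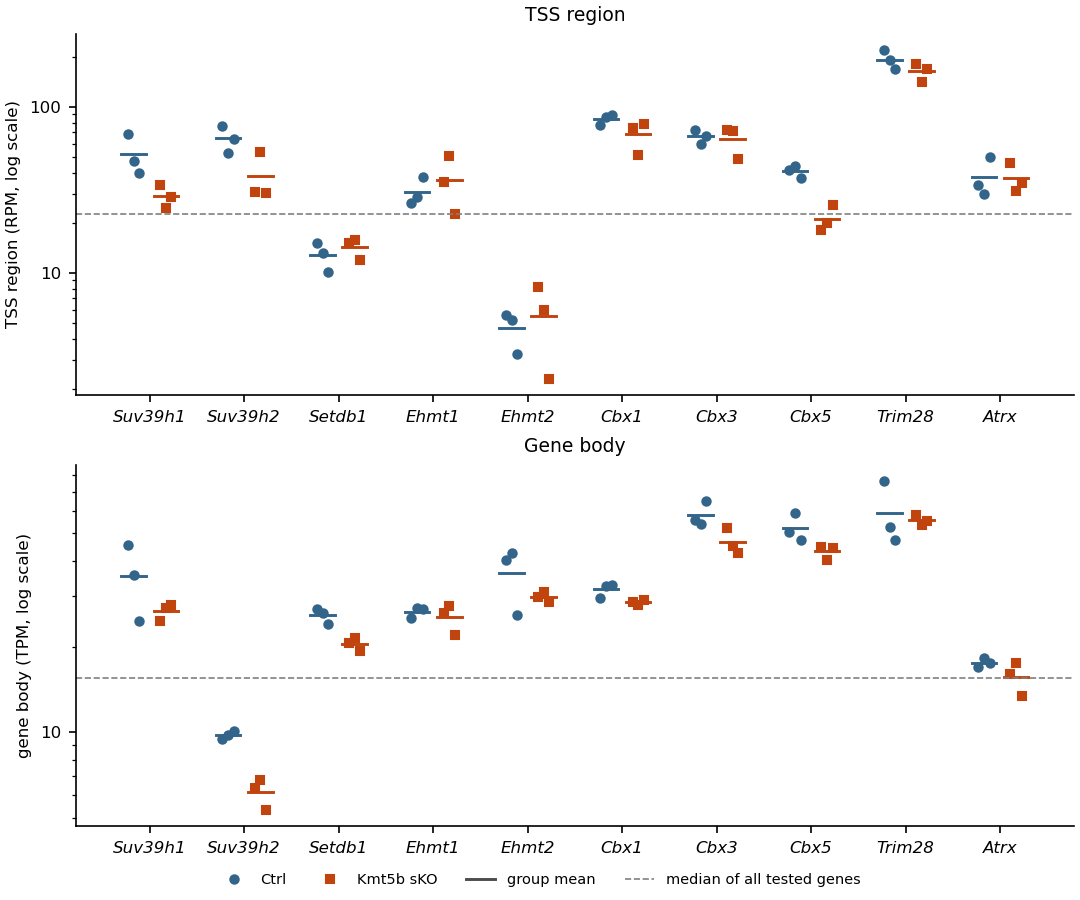
Signal of each gene in every library (top, TSS region in RPM; bottom, gene body in TPM; both on log scales). Circles are the 3 Ctrl and squares the 3 Kmt5b sKO libraries, short lines are group means and dashed lines the median over all tested genes, 22.7 RPM and 15.6 TPM. The Kmt5b sKO libraries of Cbx5 lie below the Ctrl libraries in both panels, and those of Suv39h2 in the gene body.

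**Figure D2:**
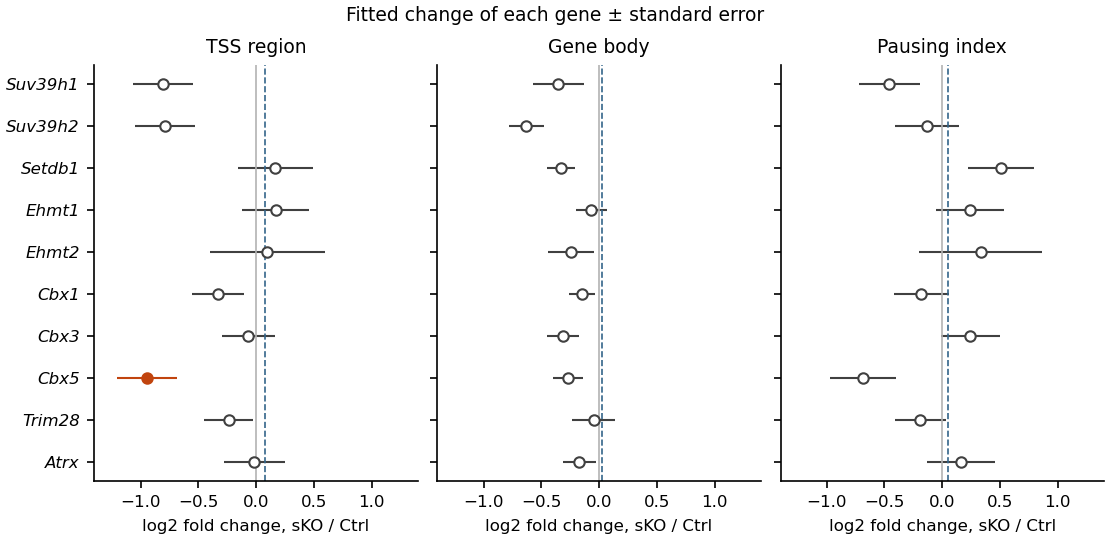
Fitted log2 fold change of Kmt5b sKO over Ctrl with its standard error from limma, for the TSS region, the gene body and the pausing index. The filled point is the call at an adjusted p under 0.1 (Cbx5, TSS region), and dashed lines show the median over all tested genes. All 10 gene body points lie below 0.

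Among the HP1 genes, Cbx5 showed the largest difference at the start of the gene. It lies at chr15:103191544-103239816 on the minus strand, has 5 exons, and its TSS region holds the first exon of 84 nt, which is noncoding, and part of the first intron. The Cbx5 TSS signal was 41.6, 43.7 and 37.3 RPM in the Ctrl libraries and 18.0, 19.8 and 25.8 RPM in the Kmt5b sKO libraries. Every Kmt5b sKO library lay below every Ctrl library. The fitted level was 0.52 of that in Ctrl (log2 fold change -0.94 ± 0.26 SE, limma adjusted p = 0.099), from 30 to 197 reads per library. This call lay close to the threshold. It was kept without Ctrl replicate 3 (adjusted p = 0.098) and lost without Ctrl replicate 1 (0.36), Ctrl replicate 2 (0.16), Kmt5b sKO replicate 1 (0.37), replicate 2 (0.22) or replicate 3 (0.14), while the log2 fold change stayed between -1.09 and -0.84.

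Over the gene body Cbx5 gave 50.5, 59.1 and 47.5 TPM in the Ctrl libraries and 44.6, 40.4 and 44.5 TPM in the Kmt5b sKO libraries. The groups did not overlap, but the gap between the lowest Ctrl and the highest Kmt5b sKO library was small, and the fitted difference of -0.27 ± 0.13 SE did not pass the test (adjusted p = 0.38). Ctrl libraries had Cbx5 pausing indices of 0.82, 0.74 and 0.79, and Kmt5b sKO libraries of 0.40, 0.49 and 0.58, again without overlap. This ratio had a log2 fold change of -0.69 ± 0.29 SE, with an unadjusted p = 0.040 from limma and an adjusted p = 0.9997. Cbx5 was the only member whose pausing index was lower in all Kmt5b sKO libraries, as it was in 3.12% of all genes tested. RefSeq places a Cbx5 start 36 nt before the listed one, and another 24464 nt downstream of it, inside the gene body.

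Cbx1 (chr11:96789127-96803969, plus strand) had TSS values of 77.2, 86.8 and 88.7 RPM in the Ctrl libraries and 74.1, 51.5 and 78.7 RPM in the Kmt5b sKO libraries. The groups overlapped, and Kmt5b sKO replicate 2 was the lowest library (log2 fold change -0.33 ± 0.23 SE, limma adjusted p = 0.67, and -0.14 without that library). In its gene body Cbx1 ranged from 29.7 to 32.9 TPM in the Ctrl libraries and from 28.0 to 29.1 TPM in the Kmt5b sKO libraries, a separation of -0.15 ± 0.11 SE on the log2 scale that did not pass the test (adjusted p = 0.62). Cbx3 (chr6:51470666-51483704, plus strand) had nearly equal TSS means, 66.3 ± 6.6 RPM and 64.0 ± 14 RPM (SD, n = 3 each). For Cbx3, RefSeq also lists a start 586 nt downstream of the listed one, inside the gene body. Its gene body gave 55.5, 54.0 and 64.7 TPM in the Ctrl libraries and 52.3, 45.2 and 42.6 TPM in the Kmt5b sKO libraries, with the highest Kmt5b sKO library just under the lowest Ctrl library (-0.31 ± 0.14 SE, adjusted p = 0.33). Cbx3 has 8 annotated pseudogenes named after it, and reads matching several positions were placed at random by the authors, so its exonic reads (12.0% of the body length) are less certain. The other members had 0 pseudogenes named after them, and copies under other names were not counted.

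**Figure D3:**
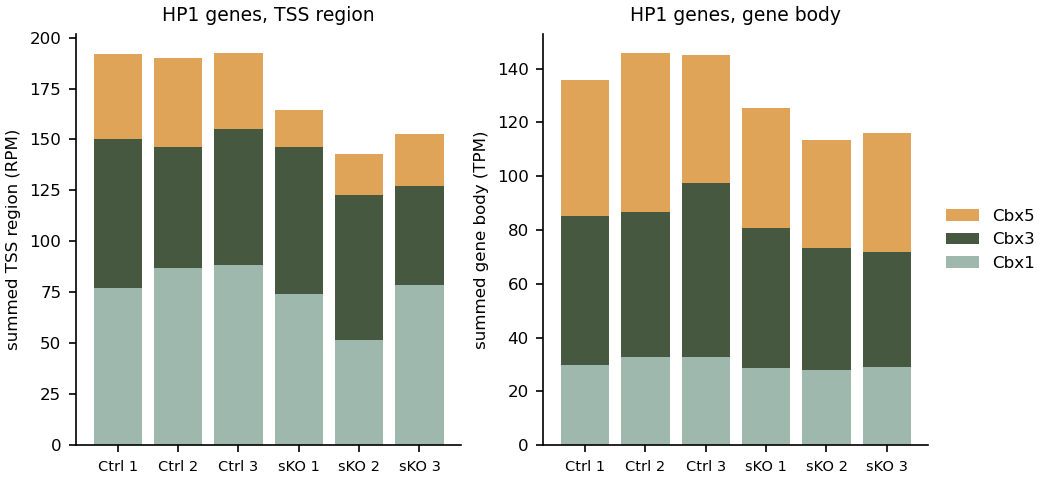
Summed signal of the HP1 genes Cbx1, Cbx3 and Cbx5 in each library (left, TSS region in RPM; right, gene body in TPM), stacked by gene from 0. Both sums are lower in the 3 Kmt5b sKO libraries than in the 3 Ctrl libraries, and the Cbx5 part of the TSS sum is smaller in them.

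Summed over the HP1 genes, the gene body signal was 142 ± 5.6 TPM in the Ctrl libraries and 118 ± 6.3 TPM in the Kmt5b sKO libraries (SD, n = 3 each). Cbx5 made up 36.8% ± 3.9 of that sum in Ctrl and 36.5% ± 1.6 in Kmt5b sKO, and Cbx3 40.8% ± 3.8 and 39.4% ± 2.5 (SD, n = 3 each), both with overlap. The share of Cbx1 was 21.9%, 22.4% and 22.7% for Ctrl against 22.8%, 24.7% and 25.1% for Kmt5b sKO, so each Kmt5b sKO library was higher. The TSS sum was 191 ± 1.1 RPM and 153 ± 11 RPM, and there the share of Cbx5 was 21.7%, 23.0% and 19.4% in Ctrl against 11.0%, 13.9% and 16.9% in the Kmt5b sKO libraries. Cbx5 thus made up a smaller part of the HP1 signal at the start of the gene in each Kmt5b sKO library, a description of these values that carries no test.

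Cbx3 and Cbx5 each share a promoter region with a gene of the hnRNP A family, which package and splice pre-mRNA, transcribed in the opposite direction. The start of Hnrnpa2b1 lies 772 nt from that of Cbx3, and the start of Hnrnpa1 616 nt from that of Cbx5. Of all listed genes, 12.8% have such a divergent neighbour within 1000 nt, and 2 of the 10 members do. Hnrnpa2b1 gave 281, 325 and 294 TPM in the Ctrl gene body and 244, 210 and 217 TPM in Kmt5b sKO, and Hnrnpa1 235, 222 and 256 TPM against 217, 190 and 197 TPM. Both neighbours were lower in all Kmt5b sKO libraries, with log2 fold changes of -0.43 ± 0.14 SE and -0.24 ± 0.14 SE, and neither passed the limma test (adjusted p = 0.21 and 0.46). Their TSS values overlapped between the groups, with log2 fold changes of -0.49 and -0.46 (adjusted p = 0.51 and 0.55).

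Both SUV39H genes had lower Kmt5b sKO means in each region, and neither passed the test. Suv39h2 (chr2:3455815-3475031, minus strand, 6 exons) gave 9.48, 9.76 and 10.1 TPM in the Ctrl gene body and 6.36, 6.82 and 5.35 TPM in the Kmt5b sKO libraries. The Ctrl libraries lay within a narrow range and all Kmt5b sKO libraries below it. The log2 fold change of -0.63 ± 0.15 SE was the lowest of the 10 and just missed the threshold with limma (adjusted p = 0.108), and it passed with edgeR (0.087) and DESeq2 (0.017). In its TSS region, which holds the whole first exon of 329 nt, Suv39h2 had 76.7, 52.9 and 64.2 RPM in the Ctrl libraries and 30.5, 53.5 and 30.4 RPM in the Kmt5b sKO libraries. Kmt5b sKO replicate 2 stood apart from its group and reached the Ctrl range (-0.79 ± 0.26 SE, adjusted p = 0.19). Without that library the log2 fold change was -1.06 and passed the test (adjusted p = 0.097). It did not pass without any other single library, with -0.66 both without Ctrl replicate 1 (adjusted p = 0.61) and without Kmt5b sKO replicate 1 (0.60), and -0.65 without Kmt5b sKO replicate 3 (0.43).

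Suv39h1 lies on the X chromosome (chrX:8061171-8074760, minus strand, 6 exons). Its TSS signal was 68.8, 47.1 and 40.0 RPM in the Ctrl libraries and 33.8, 24.4 and 28.5 RPM in the Kmt5b sKO libraries, from 37 to 284 reads. No Kmt5b sKO library reached the lowest Ctrl library, and the log2 fold change of -0.81 ± 0.26 SE had a limma adjusted p = 0.17. It passed without Ctrl replicate 3 (0.091) and with DESeq2 (0.093; background for a lower call 1.25%). Without Ctrl replicate 1 it was -0.59 (adjusted p = 0.66), and without the others the adjusted p was 0.18 to 0.39. The gene body gave 45.5, 35.7 and 24.6 TPM in the Ctrl libraries and 24.6, 27.3 and 28.1 TPM in the Kmt5b sKO libraries. Here Ctrl replicate 3 lay at the level of the Kmt5b sKO libraries, and the groups overlapped. The difference of -0.35 ± 0.22 SE (limma adjusted p = 0.51) moved to -0.59 without that library (adjusted p = 0.099) and to -0.15 without Ctrl replicate 1. Without Ctrl replicate 3, 852 of 12877 genes were called in the gene body (380 with all libraries) and 279 in the TSS region (210).

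The libraries also differed in Y-linked transcription, which bears on the members on the X chromosome. The summed gene body signal of Ddx3y, Eif2s3y, Uty and Kdm5d was 0.62, 0.20 and 24.1 TPM in the Ctrl libraries and 40.3, 42.4 and 2.28 TPM in the Kmt5b sKO libraries. Among libraries above 20 TPM, the Suv39h1 TSS signal was 40.0 RPM in Ctrl against 33.8 and 24.4 RPM in Kmt5b sKO, and among those under 3 TPM it was 68.8 and 47.1 RPM against 28.5 RPM. In the gene body, above 20 TPM Suv39h1 had 24.6 TPM in the Ctrl libraries and 24.6 and 27.3 TPM in Kmt5b sKO, and under 3 TPM 45.5 and 35.7 TPM against 28.1 TPM. With Y-linked transcription as a covariate, chosen after seeing the data, the fitted difference of Suv39h1 came to -0.67 on the log2 scale for the TSS region (limma adjusted p = 0.24) and to -0.13 for the gene body (0.75). Under the same covariate Suv39h2 passed in both regions (-0.92 and -0.73, adjusted p = 0.079 and 0.064) and Cbx5 did not pass in the TSS region (-0.77, adjusted p = 0.17). The covariate raised the number of calls among all 12877 genes, to 567 from 210 for TSS signal and to 1060 from 380 for gene body signal. The Suv39h2 calls thus come from a fit that passed more genes.

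Setdb1 (chr3:95323525-95357202, minus strand, 22 exons) differed between its regions. Its gene body gave 27.1, 26.3 and 24.0 TPM in the Ctrl libraries and 20.6, 21.5 and 19.3 TPM in the Kmt5b sKO libraries, with every Kmt5b sKO library lower (-0.33 ± 0.12 SE, limma adjusted p = 0.25, DESeq2 0.088). The TSS region gave 15.0, 13.2 and 10.04 RPM against 15.1, 15.9 and 12.0 RPM, and the groups overlapped (0.17 ± 0.33 SE, adjusted p = 0.92). For Setdb1 the pausing index of the Ctrl libraries was 0.55, 0.50 and 0.42, and that of the Kmt5b sKO libraries 0.73, 0.74 and 0.62. All Kmt5b sKO libraries were higher, as in 5.92% of all genes tested, and the log2 fold change of 0.51 ± 0.29 SE had an unadjusted p = 0.11 from limma. Setdb1 and Cbx5 were the members whose pausing index did not overlap between the groups, in opposite directions.

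**Figure D4:**
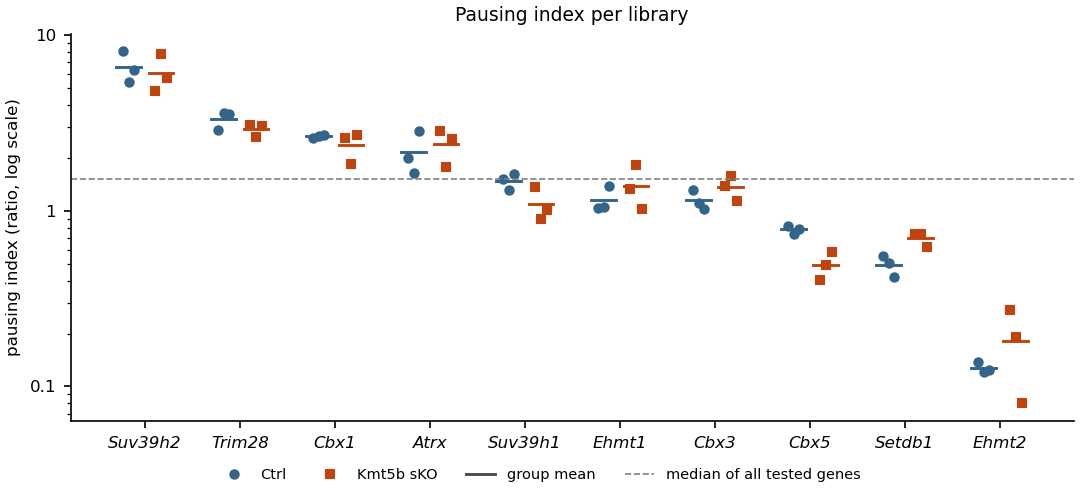
Pausing index (TSS RPM divided by gene body TPM, log scale) of each gene in every library, ordered by the mean over 6 libraries. Circles are Ctrl and squares Kmt5b sKO libraries, short lines group means, and the dashed line the median over all tested genes, 1.52. The index runs from about 6 in Suv39h2 to under 0.2 in Ehmt2 (5 to 25 TSS reads per library), and the groups are apart in Cbx5 and Setdb1.

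Ehmt1 (chr2:24789928-24919614, minus strand, 27 exons) had gene body values of 25.1, 27.3 and 27.2 TPM in the Ctrl libraries and 26.3, 27.9 and 22.0 TPM in the Kmt5b sKO libraries. The groups overlapped widely (-0.07 ± 0.14 SE, limma adjusted p = 0.87). Its TSS region ranged from 26.1 to 37.5 RPM in the Ctrl libraries and from 22.5 to 50.9 RPM in the Kmt5b sKO libraries, with the lowest and the highest library both in the Kmt5b sKO group. Ehmt2 (chr17:34898469-34914051, plus strand, 28 exons) had 40.4, 42.5 and 25.9 TPM in the Ctrl gene body and 29.9, 31.2 and 28.7 TPM in the Kmt5b sKO libraries. As for Suv39h1, Ctrl replicate 3 was the low library of its group. The log2 fold change of -0.24 ± 0.20 SE (limma adjusted p = 0.64) became -0.46 without Ctrl replicate 3 (adjusted p = 0.093). That fit called 852 of 12877 genes in the gene body, against 380 with all libraries. The Ehmt2 value was -0.11 without Ctrl replicate 2 and -0.15 without Ctrl replicate 1 (adjusted p = 0.86 each). In the TSS region Ehmt2 had 2.30 to 8.19 RPM, from 5 to 25 reads per library, too few to resolve a difference (0.10 ± 0.50 SE). RefSeq lists a start of Ehmt2 501 nt downstream of the listed one, beyond the region counted as TSS.

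For both cofactor genes the groups overlapped in each region. Trim28 (chr7:13024152-13031035, plus strand, 17 exons) had 219, 190 and 168 RPM in the Ctrl TSS region and 180, 141 and 168 RPM in the Kmt5b sKO libraries, with overlap (-0.24 ± 0.21 SE, limma adjusted p = 0.78). In its gene body Ctrl replicate 1 stood apart at 76.3 TPM, while the other 5 libraries lay between 47.4 and 58.1 TPM (-0.05 ± 0.19 SE, adjusted p = 0.94). Atrx (chrX:105797615-105929403, minus strand, 35 exons) had 33.7, 29.9 and 50.0 RPM in the Ctrl TSS region and 45.6, 31.0 and 34.5 RPM in the Kmt5b sKO libraries, and 17.6 ± 0.70 and 15.6 ± 2.0 TPM in the gene body (SD, n = 3 each). Its log2 fold changes were -0.01 ± 0.26 SE in the TSS region and -0.17 ± 0.14 SE in the gene body (adjusted p = 0.99 and 0.64). Within libraries above 20 TPM of Y-linked signal the Atrx gene body gave 17.5 TPM in Ctrl against 15.96 and 17.5 TPM in Kmt5b sKO, and under 3 TPM 16.9 and 18.3 TPM against 13.4 TPM. Annotated genes on the same strand overlap Ehmt1 (Gm38147 and Gm37139) and Atrx (Gm14853), and reads from them cannot be told apart from those of the host gene.

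The levels of the members spanned a wide range. In the gene body, per length, the order of the means over all 6 libraries was Trim28, Cbx3, Cbx5, Ehmt2, Suv39h1, Cbx1, Ehmt1, Setdb1, Atrx and Suv39h2, from 57.1 to 7.98 TPM. Neighbours in this order were separated over the 6 libraries only between Cbx1 and Ehmt1, between Setdb1 and Atrx, and between Atrx and Suv39h2. All members but Suv39h2 exceeded the median of all tested genes, 15.6 TPM. In the TSS region, all 400 nt long, Trim28 led with a mean of 178 RPM, apart from Cbx1 at 76.1 RPM, and Setdb1 (13.5 RPM) and Ehmt2 (5.07 RPM) closed the order, each apart from the gene before it. Suv39h2 had the highest pausing index, 6.36 on average, above 95.8% of all tested genes, and Ehmt2 the lowest, 0.15, above 2.48% of them. The TSS level and the index of Ehmt2 rest on 5 to 25 TSS reads per library. RefSeq also lists an Ehmt2 start 501 nt downstream, outside its TSS region. The SUV39H genes differed in profile, with Suv39h1 making up 77.4% ± 6.1 of their summed gene body signal in Ctrl (SD, n = 3) but 44.2% ± 5.1 of their TSS signal. RefSeq also lists a Suv39h1 start at the last base of its TSS region. Reads from that start would count almost wholly as gene body, which limits this contrast and the Suv39h1 pausing index.

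Partners of these genes were examined as lists. Of all genes tested, 1.63% were called for TSS signal and 2.95% for gene body signal. A list of 11 genes with 0 calls is therefore not set apart from all genes. Of 11 tested partners of the methyltransferases and other writers (Wiz missed the filter in the TSS region), none was called in either region, and the median gene body log2 fold change was 0.02. Mecom, which encodes a PR-domain zinc finger protein, had the highest value (1.02, adjusted p = 0.21), at a level of only 1.07 ± 0.31 TPM in the Ctrl libraries and 2.85 ± 1.4 TPM in Kmt5b sKO (SD, n = 3 each). It was followed by Prdm16 (0.35, adjusted p = 0.52), and the lowest were Kmt5c, the paralogue of Kmt5b (-0.37, adjusted p = 0.69), and Setdb2 (-0.32, adjusted p = 0.40). None of the 11 H3K9 demethylases was called either, and 7 of them had positive values in each region. Negative values made up 41.9% (TSS region) and 46.4% (gene body) of all genes tested, so this split lies near that of all genes. Kdm7a (0.51) and Jmjd1c (0.34) were highest in the gene body and Kdm4d (-0.21) and Phf2 (-0.14) lowest, with adjusted p of 0.45, 0.40, 0.69 and 0.78.

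Called genes were found among histone chaperones and HP1 partners, where the background for a lower call was again 1.34% in the gene body and 0.699% in the TSS region. Of 10 tested histone chaperone and H3 variant genes, Chaf1b, a subunit of the chromatin assembly factor that works at replication forks, fell in both regions (TSS -1.26, gene body -1.16, adjusted p = 0.074 and 0.094), and Asf1b, a chaperone that hands over histones H3 and H4, fell in the gene body (-0.90, adjusted p = 0.10, just under the threshold). Chaf1a had -0.85 in the gene body without passing (adjusted p = 0.16). H3f3a (0.02) and Ubn1 (-0.02) had the highest values, and Daxx, the partner of ATRX, had -0.08. Of 12 tested HP1 partners and heterochromatin factors, 3 fell in the gene body: Hells, a chromatin remodeller needed for DNA methylation (-1.11, adjusted p = 0.064), Uhrf1, which reads methylated H3K9 and hemimethylated DNA (-1.20, adjusted p = 0.070), and Incenp, a scaffold of the chromosomal passenger complex (-0.99, adjusted p = 0.075). Uhrf1 and Incenp also fell in the TSS region (-1.29 and -0.98, adjusted p = 0.049 and 0.065). Mki67, which also stands in the list of proliferation genes, had the lowest gene body value (-1.22, adjusted p = 0.12), and Pogz (0.20) and Lrif1 (0.20) the highest. The gene body calls were lost in most fits with 1 library left out. No gene at all was called there without Ctrl replicate 1 or without Kmt5b sKO replicate 1, 2 or 3. Without Ctrl replicate 2 only Hells of these 5 genes was kept. In these fits the gene body log2 fold changes ranged from -1.25 to -0.96 for Hells, -1.37 to -1.03 for Uhrf1 and -1.18 to -0.83 for Incenp. They ranged from -1.36 to -0.96 for Chaf1b and from -1.06 to -0.78 for Asf1b. In the TSS region Chaf1b was called in 2, Incenp in 3 and Uhrf1 in 4 of 6 fits with 1 library left out, none of them without Ctrl replicate 1 or Kmt5b sKO replicate 1.

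**Figure D5:**
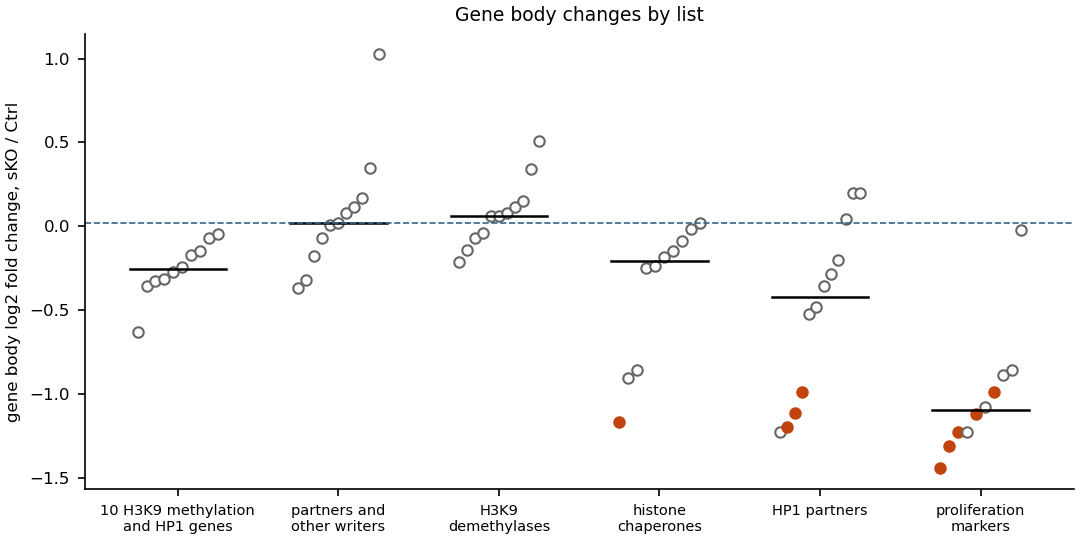
Gene body log2 fold change of Kmt5b sKO over Ctrl for the 10 members and for the tested genes of 5 lists, with 1 point per gene. Filled points are calls at an adjusted p under 0.1, bars are list medians and the dashed line is the median over all tested genes. The members have a median of -0.26, between demethylases near 0 and proliferation markers with a median of -1.10.

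Proliferation genes were lower in the same libraries. All 10 of them had negative gene body values (46.4% of all genes did), and 5 fell (Ccna2, Bub1, Top2a, Pcna and Cdk1; background 1.34%), with a median log2 fold change of -1.10. These 5 calls too were lost without Ctrl replicate 1 or any one Kmt5b sKO library, and those of Top2a and Cdk1 also without Ctrl replicate 2. Their summed gene body signal was 427 to 608 TPM in the Ctrl libraries and 251 to 312 TPM in the Kmt5b sKO libraries, and within Ctrl it was lowest in replicate 3. Genes of mature muscle (Myh1, Myh4, Ckm, Acta1 and Mb) summed to 444 to 971 TPM in the Ctrl libraries and 1171 to 1605 TPM in the Kmt5b sKO libraries, with none of 4 tested called. The satellite cell genes Pax7, Myf5, Myod1, Des and Cdh15 were present in every library, at 1391 to 2104 TPM in sum in the Ctrl libraries and 1878 to 2575 TPM in Kmt5b sKO. Fibroblast and endothelial markers summed to 8.39 to 36.7 TPM in Ctrl and 11.9 to 15.7 TPM in Kmt5b sKO for 3 fibroblast genes (Pdgfra, Col1a1 and Pdgfrb, highest in Ctrl replicate 2), and to 2.50 to 4.23 and 4.38 to 5.05 TPM for 3 endothelial genes (Pecam1, Cdh5 and Tek). Of the immune list Cd68 gave 214 to 402 TPM in the Ctrl libraries and 319 to 326 TPM in Kmt5b sKO, and Itgam was under 1 TPM in every library. The immune genes Ptprc, Csf1r and Adgre1, the fibroblast genes Dcn and Lum and the endothelial gene Kdr were not among the genes listed. The part of proliferation, differentiation or other cells in the values of the H3K9 and HP1 genes was not tested.

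Averaged over the members, the standardised gene body values gave 0.72, 0.81 and 0.21 for the Ctrl libraries, against -0.39, -0.38 and -0.97 for those of Kmt5b sKO. Ctrl replicate 3 lay nearest to the Kmt5b sKO libraries and Kmt5b sKO replicate 3 farthest from Ctrl. The genes with the profile most like it were Gm13285 (Pearson r = 0.995), Cep152, which encodes a centrosome protein (0.993), and Crybg1 (0.993). Over these 6 points (libraries), which share library depth and group, 408 of 12867 other genes (3.17%) exceeded a correlation of 0.9.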

How the data were processed

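PRO-seq of 3 Ctrl and 3 Kmt5b sKO MuSC samples was analysed, grouped by the genotype in the labels. The authors used Trimmomatic 0.39 for trimming, STAR 2.6.1d for alignment to GRCm38 (a read with several matches kept 1 position at random) and Picard 2.18.16 for deduplication, and counted sense reads over isoforms of protein-coding genes, listing 1 isoform per gene. The values deposited for the gene body are TPM. Those deposited for the TSS region are named TPM, but all regions are 400 nt, which makes them RPM, scaled separately from the gene body values. The tests planned for the values were kept.

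A gene was kept if its TSS mean and its gene body mean each reached 0.5, on autosomes, X (421) and Y (5). Values were transformed to log2(value + 0.5), and limma 3.58.1 under R 4.3.3 fitted genotype alone (lmFit, then eBayes with trend). Fold changes on this scale understate changes of low genes. X and Y were kept because Suv39h1 and Atrx lie on X. The study's methods leave them out, and autosomes only (12451 genes) was an alternative. The pausing index was tested as a log2 ratio without a pseudocount. Calls used a Benjamini-Hochberg adjusted p under 0.1 over all genes tested. Whole reads were recovered from the value steps (99.99% to 100% of TSS values whole within 0.1 read plus rounding) and tested with edgeR 4.0.16 and DESeq2 1.42.0, for which the median tested gene had 35 to 105 TSS and 199 to 458 gene body reads per library. Other alternatives were another pseudocount, no filter, no trend, centred libraries, a stricter threshold, a replicate block, each library left out and a Y-linked covariate. All tests were tried on simulated data with planted changes larger than those of the members. That trial does not show how well changes of the members' size are found.

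The members, the gene lists and the rules were chosen with earlier results of these data known. The text names all members, divergent neighbours within 1000 nt, called list genes with the 2 highest and 2 lowest of each pathway list in the gene body, and the 3 genes most like the members' mean profile. Marker genes, Daxx and Chaf1a were named besides. Coordinates are GRCm38, exons come from GENCODE vM21, upstream sequence from the RefSeq GRCm38.p6 genome. Sequences were read with samtools 1.23.1, plots drawn with matplotlib 3.10.9, and tables handled in Python 3.11.15 with pandas 2.3.3 on numpy 2.4.6.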

Additional observations from a re-analysis of the deposited data

How the results depend on the processing

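For the 30 member values, 474 values were recomputed under the alternatives. Of these, 432 kept their direction and their side of the threshold, 11 no longer passed, 11 newly passed and 20 turned their sign. Only 1 of the 30, the Cbx5 TSS region, had passed in the main fit, so the 432 are mostly uncalled values that stayed uncalled. All 11 losses belong to this call, which was kept in 6 of its 17 alternatives. The number of genes called in the TSS region, 210, became 0 without the filter (1501 at an unadjusted p under 0.05), 0 without the trend (1334), 66 at an adjusted p under 0.05, 567 with the Y-linked covariate, and 2 to 409 with 1 library left out. In the gene body 380 became 1 at an adjusted p under 0.05, 1060 with the Y-linked covariate, 780 with edgeR, 1335 with DESeq2, and 0 to 852 with 1 library left out. The pausing index had 1 call with a pseudocount and 9 with reads per nt. The same-numbered libraries did not deviate together (correlations of -0.04, -0.14 and -0.17 in the TSS region and -0.16, -0.17 and -0.34 in the gene body). Deviations from the mean of a group of 3 libraries sum to 0, which ties these correlations to each other. They showed no shared deviation by number, but with 3 libraries per group they do not decide whether the numbers pair samples. With a replicate block 0 genes and 0 members were called in the TSS region (1176 genes at an unadjusted p under 0.05), 0 in the gene body (1486) and 0 for the pausing index (425). Members called in the TSS region, 1 (Cbx5), were 0 with a pseudocount of 0.1, without the filter, without the trend or at an adjusted p under 0.05, 2 with DESeq2 (Cbx5 and Suv39h1), 1 with the Y-linked covariate (Suv39h2 in place of Cbx5), and 0 to 2 with 1 library left out. In the gene body 0 became 1 without the trend, with edgeR or with the covariate (Suv39h2 each time), 2 with DESeq2 (Suv39h2 and Setdb1), and 0 to 2 with 1 library left out, the 2 without Ctrl replicate 3 being Suv39h1 and Ehmt2. The median log2 fold change of the members lay between -0.28 and -0.11 in the TSS region and between -0.29 and -0.16 in the gene body with 1 library left out, and at -0.18 in the gene body with the covariate. With 1 library left out, log2 fold changes ranged in the TSS region from -0.17 to 0.12 for Cbx3, -0.25 to 0.57 for Ehmt2, -0.11 to 0.47 for Ehmt1 and -0.17 to 0.20 for Atrx, in the gene body from -0.19 to 0.15 for Trim28 and -0.14 to 0.031 for Ehmt1, and for the pausing index from -0.32 to 0.031 for Suv39h2, -0.020 to 0.38 for Atrx and -0.048 to 0.84 for Ehmt2. With the covariate the sign turned for Ehmt2 (-0.11) and Ehmt1 (-0.20) in the TSS region, Trim28 (0.057) in the gene body, and Ehmt2 (-0.067) and Ehmt1 (-0.042) for the pausing index. The causes were not tested. Depth limits the TSS region of Ehmt2 most, at 5 to 25 reads.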
